A study of Mus musculus with 24 samples.

Results

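H3K27me3, the trimethyl mark that the Polycomb methyltransferase EZH2 places on histone H3 at repressed genes, was described at the promoters of the 9 neuronal nicotinic acetylcholine receptor subunit genes, Chrna2 to Chrna7 and Chrnb2 to Chrnb4. The members were taken by family from 21938 protein-coding genes. They were chosen by way of Chrna3, selected on its own coverage values, because it was among the promoters that gained coverage between the first and the last day of culture. For that reason the day comparisons that include DIV1 or DIV7 are given here as descriptions, without a test. Each promoter was a window of 3 kb on both sides of the 5' end of the gene model in the mm10 build (GRCm38), 6 kb in all. Coverage is the percent of that window under a library's peaks.

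The 24 CUT&RUN libraries were made from cultured mouse cerebellar granule neurons (CGNs), in 8 groups of 3. Granule neuron precursors were prepared from early postnatal cerebella of CD1-IGS mice and mature in the dish, and each biological replicate was a pool of litters. Time course cultures were collected after 1, 3, 5 or 7 days in vitro (DIV1 to DIV7). In the drug experiments cultures were kept from DIV1 to DIV5 with 5 µM GSK-126, which blocks EZH2, or with 1 µM GSK-J4. Each compound had its own set of DMSO vehicle controls. GSK-J4 is an inhibitor of the demethylases (KDM6) acting on this mark. The paper reports no change of the mark with this compound at the doses tried, by western blot or CUT&RUN. Its authors concluded that the usable dose range was too narrow for work in neurons. Whether KDM6 was blocked in these cultures was not tested. The GSK-J4 values below are therefore not read as effects of a KDM6 block. All cultures that reached DIV2 received 1 µM cytosine arabinoside, which removes dividing cells, so the DIV1 libraries are the only ones from before that step. The cultures carried no engineered allele in the sources used here. The preparations were bulk, so a smaller share of cells with the mark and less mark per cell cannot be told apart.

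Nicotinic receptors are pentameric cation channels opened by acetylcholine and by nicotine. Alpha subunits carry the main face of the ligand binding site, and beta subunits the complementary face. The alpha4 and beta2 subunits form the high-affinity receptor of most brain regions, alpha3 and beta4 form the receptor of autonomic ganglia and the medial habenula, and alpha7 forms a calcium-permeable receptor on its own. The alpha5 and beta3 subunits are accessory subunits, alpha6 is typical of midbrain dopamine neurons, and alpha2 of a few groups of interneurons. The genes for alpha5, alpha3 and beta4 lie side by side, and in the mouse this cluster is on chromosome 9, with Chrna5 on the plus strand and Chrna3 and Chrnb4 on the minus strand.

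The marked stretches differed between the members in their place and in their CpG content, and the sequences below show them for the promoters the results turn on. Each stretch is 250 bases of GRCm38.p6 from RefSeq, written 5' to 3' on the gene's strand, with every CpG dinucleotide in capitals. CpG was the only motif searched, reads the same on both strands and is the feature most often tied to Polycomb sites in mammals. Chrna3 is shown directly upstream of its 5' end (chr9:55026563-55026812) and in the most often covered stretch of its first intron (chr9:55026081-55026330). Chrna4 is shown upstream of its principal transcript (chr2:181039306-181039555), where its peaks were. Chrna5 is shown in its first intron (chr9:54982518-54982767), where its peaks were, and Chrnb4 upstream of its 5' end (chr9:55048780-55049029). Chrna7 (chr7:63212570-63212819) is shown as a CpG-rich promoter with few peaks, and Chrna6 (chr8:27413945-27414194) and Chrnb3 (chr8:27368461-27368710) as promoters with none. None of these stretches holds an annotated exon.
Chrna3 upstream: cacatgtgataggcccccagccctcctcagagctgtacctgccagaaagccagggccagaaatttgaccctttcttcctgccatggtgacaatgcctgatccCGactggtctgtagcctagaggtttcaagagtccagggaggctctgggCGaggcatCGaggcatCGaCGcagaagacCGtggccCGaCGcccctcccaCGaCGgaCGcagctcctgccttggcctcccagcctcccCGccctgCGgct
Chrna3 intron 1: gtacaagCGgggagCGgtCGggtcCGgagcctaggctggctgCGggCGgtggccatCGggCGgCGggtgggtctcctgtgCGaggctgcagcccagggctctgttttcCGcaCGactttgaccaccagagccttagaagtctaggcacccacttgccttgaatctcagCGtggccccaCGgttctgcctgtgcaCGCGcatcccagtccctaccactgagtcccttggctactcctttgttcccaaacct
Chrna4 upstream: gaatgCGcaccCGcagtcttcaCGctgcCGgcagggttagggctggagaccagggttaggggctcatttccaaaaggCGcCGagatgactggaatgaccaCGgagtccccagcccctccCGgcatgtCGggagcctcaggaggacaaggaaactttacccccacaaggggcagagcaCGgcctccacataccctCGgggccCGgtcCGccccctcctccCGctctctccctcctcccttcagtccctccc
Chrna5 intron 1: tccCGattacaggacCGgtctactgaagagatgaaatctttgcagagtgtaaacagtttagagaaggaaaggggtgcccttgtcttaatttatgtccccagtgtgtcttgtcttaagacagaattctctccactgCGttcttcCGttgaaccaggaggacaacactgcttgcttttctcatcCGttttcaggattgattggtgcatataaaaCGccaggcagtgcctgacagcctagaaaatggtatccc
Chrnb4 upstream: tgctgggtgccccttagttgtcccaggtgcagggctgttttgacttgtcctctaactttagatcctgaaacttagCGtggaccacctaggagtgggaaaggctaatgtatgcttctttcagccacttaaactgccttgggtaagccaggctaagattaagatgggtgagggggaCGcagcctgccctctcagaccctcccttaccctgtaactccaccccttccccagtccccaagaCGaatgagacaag
Chrna7 upstream: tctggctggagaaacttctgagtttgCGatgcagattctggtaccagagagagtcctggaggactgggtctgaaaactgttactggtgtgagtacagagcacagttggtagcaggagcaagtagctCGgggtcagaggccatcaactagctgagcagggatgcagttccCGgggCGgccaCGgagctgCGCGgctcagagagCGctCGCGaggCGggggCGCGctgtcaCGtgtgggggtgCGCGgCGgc
Chrna6 upstream: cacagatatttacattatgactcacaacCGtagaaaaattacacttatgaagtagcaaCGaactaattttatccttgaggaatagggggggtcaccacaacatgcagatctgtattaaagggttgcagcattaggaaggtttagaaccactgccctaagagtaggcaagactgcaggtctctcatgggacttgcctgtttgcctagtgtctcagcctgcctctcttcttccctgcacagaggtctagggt
Chrnb3 upstream: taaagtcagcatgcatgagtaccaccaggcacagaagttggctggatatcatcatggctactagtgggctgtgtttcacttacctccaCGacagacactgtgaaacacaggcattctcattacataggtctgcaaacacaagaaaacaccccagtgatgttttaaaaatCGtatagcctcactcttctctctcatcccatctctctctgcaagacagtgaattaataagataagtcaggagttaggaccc

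These stretches held 13 CpGs upstream of Chrna3, 16 in the first intron of Chrna3, 14 upstream of Chrna4, 6 in the first intron of Chrna5, 3 upstream of Chrnb4, 17 upstream of Chrna7 and 2 each upstream of Chrna6 and Chrnb3. Of all promoters, 37.3% held at least as many CpGs as Chrna3 in the 250 bases upstream, 34.6% as many as Chrna4 and 83.2% as many as Chrna6 or Chrnb3. The upstream stretch of Chrna3 was touched by peaks of 18 libraries and its intron stretch by 19, of which 12 covered all 250 bases. The upstream stretch of Chrna4 was touched by 18 libraries, the intron stretch of Chrna5 by 8, the upstream stretch of Chrnb4 by 6 and that of Chrna7 by 1.

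In all, 6 of the 9 windows had a peak in at least 1 of the 24 libraries when all deposited peaks were used. Chrna3 had one in 22 libraries, Chrna5 in 16, Chrnb4 in 11, Chrna7 in 5, Chrnb2 in 4 and Chrna2 in 1, while Chrna4, Chrna6 and Chrnb3 had none. Over all promoters 38.0% had a peak in at least 1 library and 9.45% in at least 12. A peak in 22 or more libraries was found at 3.12% of promoters, in 16 or more at 7.15%, and in 11 or more at 10.1%. A window without a peak is one below the caller's threshold and is not thereby shown to lack the mark.

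**Figure D1:**
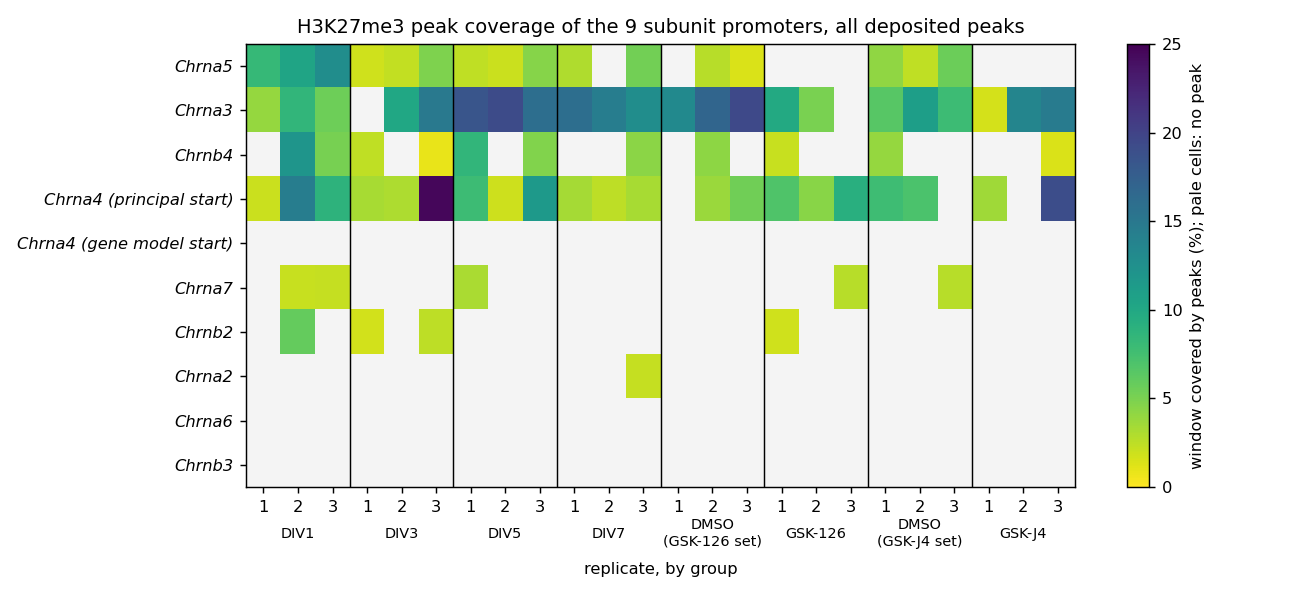
Percent of each subunit's 6 kb promoter window covered by peaks (colour scale, 0 to 25%) in each of the 24 libraries, with all deposited peaks; columns are replicates within groups, pale cells have no peak, and Chrna4 is drawn for both of its 5' ends. Chrna3 was covered in 22 libraries and Chrna6 and Chrnb3 in none.

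The libraries differed in how much was called. They held 4740 to 22832 peaks covering 1.07 to 6.57 Mb, with a median fold enrichment, as the peak caller gave it, of 3.61 to 4.17 by library, and no read depth can be had from peak lists. For the tests each library was therefore limited to the peaks of highest −log10 p whose summed length equalled the shortest list of the same experiment (equal-length lists). DIV7 libraries (1.19 to 2.25 Mb) and GSK-126 libraries (1.07 to 2.00 Mb) had less covered than the DIV5 libraries (2.37 to 4.0 Mb) and the DMSO libraries of the GSK-126 set (3.29 to 4.23 Mb). The part that this plays in the values below was not tested on reads. Promoters of the granule neuron markers Neurod1, Pax6, Zic1, Zic2, Rbfox3, Gabra6 and Tubb3 had a peak in at most 5 libraries, and 4 of these 7 in none. Of 3 markers of cholinergic and autonomic neurons only Chat had a peak, in 1 library. A peak in at least 1 library was also found for 1 of 4 astroglia, 3 of 4 oligodendrocyte lineage, 1 of 3 microglia and 2 of 4 Purkinje cell and interneuron markers. Peaks of a repressive mark cannot show which cell types were present.

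Chrna3, which encodes the alpha3 subunit, was the most covered member. Its 37 peaks were 48 to 1001 bp long, with fold enrichments of 3.13 to 5.24 and a median of 3.81. They all lay between 532 bp upstream and 1356 bp downstream of the 5' end, at chr9:55026562, and none was called in the remaining part of the window. Within that span 21 libraries had a peak within 600 bp of the 5' end. A narrower place in the first intron, past 700 bp, was reached in 14 libraries, and its most often covered bases were covered in 12 of them, from 898 to 931 bp downstream. The most often covered bases of the whole window, from 53 to 69 bp downstream, were covered in 19 libraries. They lie in the first exon.

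**Figure D2:**
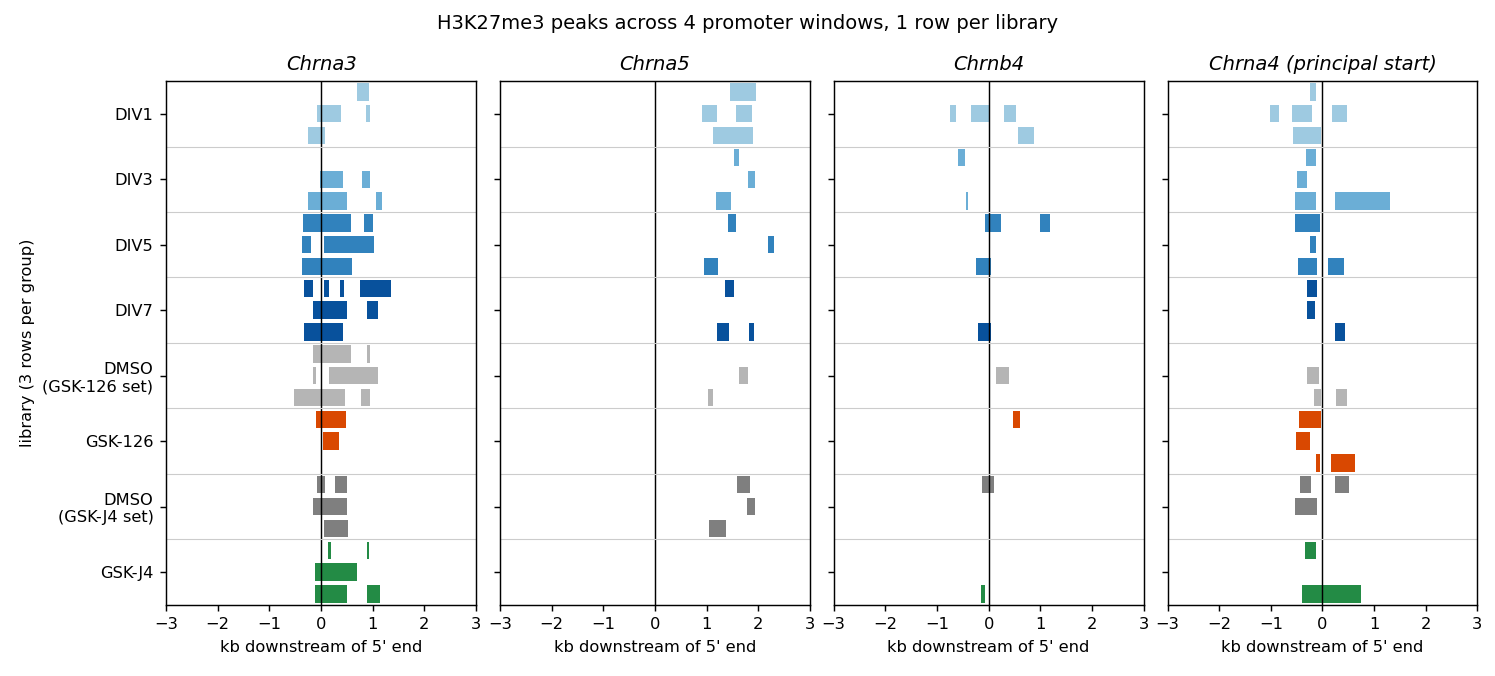
Peaks of all deposited lists in the windows of Chrna3, Chrna5, Chrnb4 and the principal 5' end of Chrna4, drawn by distance from the 5' end in kb (positive downstream), 1 row for each of the 24 libraries and 1 colour for each group. Chrna3 peaks spanned the 5' end, Chrna5 peaks began 909 bp downstream of it, and no peak was drawn for Chrna3 in GSK-126 replicate 3.

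By day, with all deposited peaks, Chrna3 coverage was 3.93%, 8.57% and 5.53% at DIV1, and 0%, 10.1% and 14.85% at DIV3. It was 18.4%, 19.3% and 15.95% at DIV5, and 15.97%, 14.4% and 12.8% at DIV7. All 3 DIV7 libraries lay above all DIV1 libraries, while DIV3 overlapped with DIV1 and with DIV7. The means were 6.01% ± 2.35, 8.33% ± 7.59, 17.9% ± 1.73 and 14.4% ± 1.60 (SD, n = 3 each) in the order of days. In these full lists, 2.15% of 3585 promoters were higher at DIV7 than at DIV1 without overlap of the groups, and 17.5% were lower.

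In the equal-length lists the order of the days changed. Chrna3 coverage was 3.93%, 1.08% and 0% at DIV1, 0%, 2.57% and 0% at DIV3, 0% in all 3 libraries at DIV5, and 14.2%, 14.4% and 12.8% at DIV7. DIV5 thus had the highest coverage in the full lists and none in the equal-length lists. The 5 Chrna3 peaks of the DIV5 libraries had −log10 p of 5.03 to 5.23, just under the weakest peak that these libraries kept, at 5.25 to 5.44. The 7 peaks at DIV7 had −log10 p of 4.796 to 6.35, and 6 of them were kept, since the weakest peak kept there was at 4.803 to 5.22. At DIV1, where the 4 peaks had −log10 p of 5.07 to 6.14, 2 were kept, and at DIV3 1 of 4. The fold enrichment of the strongest Chrna3 peak was 3.91 to 4.35 in the DIV1 libraries and 3.65 to 3.70 in the DIV7 libraries. Coverage was thus higher at DIV7 while the fold enrichment of the strongest peak was not.

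**Figure D3:**
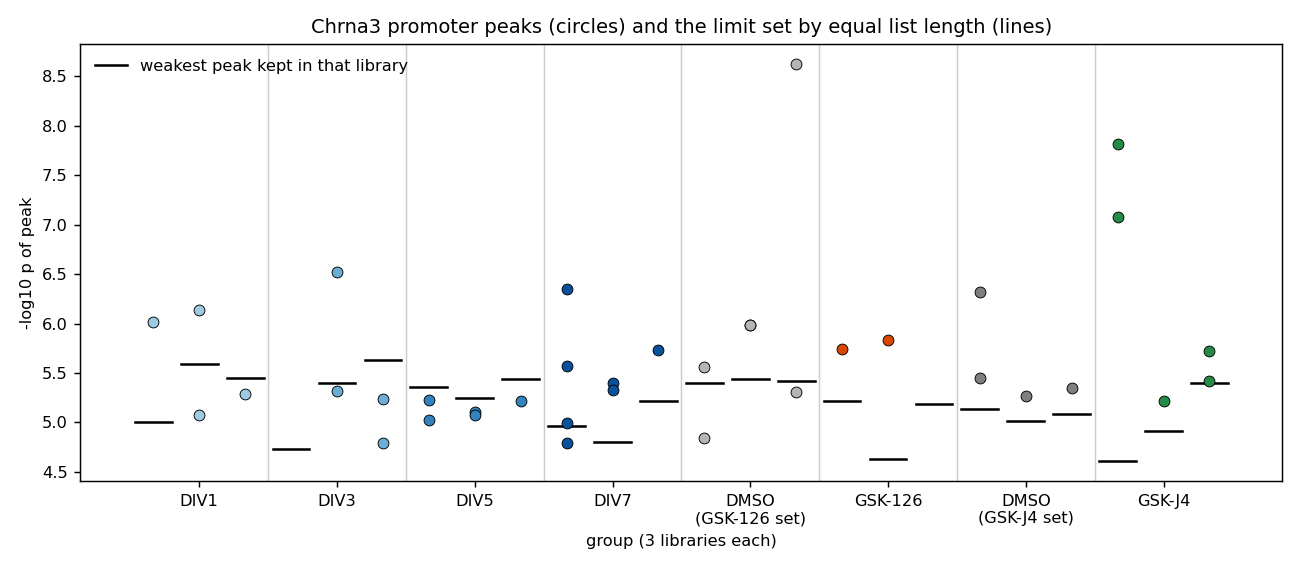
The −log10 p of each Chrna3 promoter peak (circles) and of the weakest peak kept in that library when lists were limited to equal summed length (black lines), for 3 libraries in each of 8 groups. All 5 DIV5 peaks lie under the line of their library, and 6 of 7 DIV7 peaks on or above it.

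In the equal-length lists Chrna3 was at 1.67% ± 2.03 at DIV1 and at 13.8% ± 0.902 at DIV7 (SD, n = 3), which is the difference it was chosen for. It was 1 of 18 promoters called among 1795 tested, 1.0%, and nothing is read from that here. The step between DIV3 and DIV5 shares no library with that difference, but its fit used all 12 time course libraries. In these lists 1 DIV3 library and no DIV5 library had Chrna3 coverage. Chrna3 thus reached the 3 libraries needed for a test only with DIV1 and DIV7, and its test is not independent of the choice. From DIV3 to DIV5 Chrna3 changed by -0.86 percentage points in these lists (SE 1.42, limma adjusted p = 0.965), and no promoter was called in that comparison (0.0% of 1795, and 6.35% at an unadjusted p under 0.05). The same step was, with all deposited peaks, 9.56 points upward (SE 3.22), with an unadjusted p of 0.014 and a limma adjusted p of 1. An unadjusted p under 0.05 was found there for 2.98% of 3585 promoters. The direction thus depended on the lists. The step from DIV5 to DIV7 turned likewise, from 13.8 points upward in the equal-length lists to -3.50 with all deposited peaks. It shares the DIV7 libraries that Chrna3 was chosen on, so it too is a description, beside 0.334% of 1795 promoters called in the equal-length lists.

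Chrna5, the accessory alpha5 subunit, had its peaks at another place of the window, and like Chrna3 it had peaks on every day. Its 18 peaks lay from 909 to 2313 bp downstream of its 5' end (chr9:54980880), so they began in the first intron and none touched the 5' end. They were 87 to 763 bp long, with a median fold enrichment of 3.33, and at no base did more than 7 libraries overlap. A second group of Chrna5 transcripts begins inside the same window, upstream of these peaks. Its coverage with all deposited peaks was 8.23%, 10.4% and 12.7% at DIV1, 1.83%, 2.32% and 4.85% at DIV3, 2.37%, 1.98% and 4.53% at DIV5, and 2.98%, 0% and 5.28% at DIV7. Every DIV1 library lay above every DIV7 library. The mean of Chrna5 was 10.4% ± 2.24 at DIV1 and 2.76% ± 2.65 at DIV7, and 17.5% of promoters were lower at DIV7 without overlap. DIV3 to DIV5 gave a change of -0.04 points (SE 1.83, limma adjusted p = 1).

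In the equal-length lists Chrna5 kept a peak in 1 DIV1 library, 2 DIV3 libraries, no DIV5 library and 1 DIV7 library. DIV3 to DIV5 then gave a change of -1.38 points (SE 2.19, limma adjusted p = 0.965). Chrna5 reached the 3 libraries needed for this test only with DIV1 and DIV7, so it too is not independent of the choice. Its difference between DIV1 and DIV7 shrank to -1.55 points and rested on DIV1 replicate 1, the library with the shortest DIV1 list. Without that library it was 1.19 points upward.

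**Figure D4:**
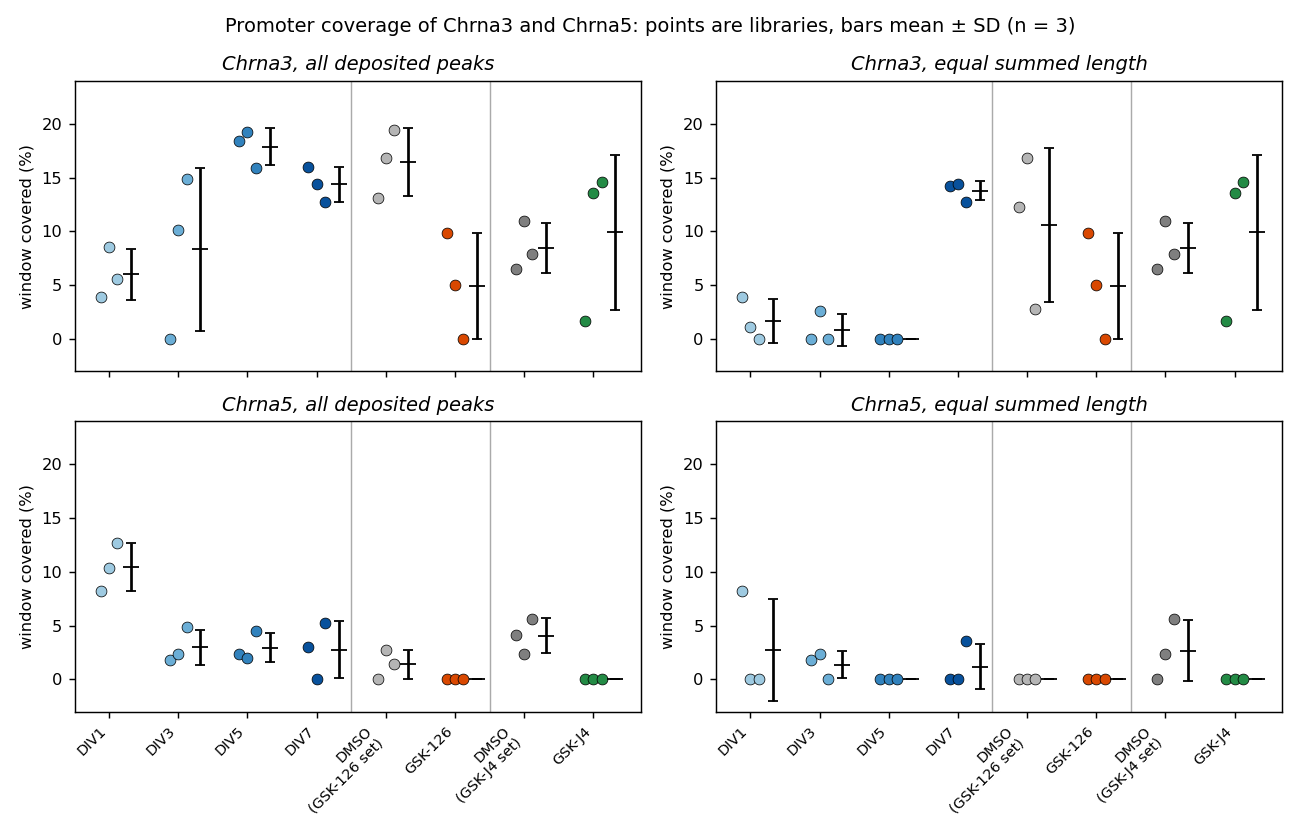
Coverage (%) of the Chrna3 (top) and Chrna5 (bottom) promoter windows in each library (points), with mean and SD of each group (n = 3), for all deposited peaks (left) and equal-length lists (right); grey lines part the 3 experiments. With all peaks the mean of the time course groups is lowest for Chrna3 and highest for Chrna5 at DIV1, and at DIV5 both are at 0% in the equal-length lists.

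Chrnb4, the beta4 subunit that pairs with alpha3, had 14 peaks in 11 libraries, between 745 bp upstream and 1195 bp downstream of its 5' end (chr9:55048779). Its coverage reached 11.98% in DIV1 replicate 2 and 8.52% in DIV5 replicate 1, and was at most 5.08% in the others. DIV1 had 0%, 11.98% and 5.08%, DIV3 2.38%, 0% and 0.83%, DIV5 8.52%, 0% and 4.77%, and DIV7 0%, 0% and 4.30%. Every day overlapped with every other. It had too few covered libraries for a test in the equal-length lists. DIV3 to DIV5 gave, with all deposited peaks, 3.36 points upward (SE 3.08, limma adjusted p = 1). In the drug experiments it had a peak in 1 library of each of the 4 groups.

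The 3 promoters held nearly all of the peaks of the cluster. From Chrna5 to Chrnb4 with 3 kb added on both sides, a region of 73.9 kb (chr9:54977880-55051779), there were 72 peaks in 23 libraries, and 98.3% of the covered bases were inside the 3 promoter windows. GSK-126 replicate 3 was the library without a peak in the whole region, and it is also the library where 47.2% of promoters with a peak had none elsewhere. Between the promoters almost nothing was called. No peak was called at the 3 coding neighbours on the Chrna5 side, Hykk, AY074887 and Psma4, in any library. On the other side Ube2q2 had a peak in 7 libraries, covering at most 2.52%, Fbxo22 in none and Nrg4 in 1.

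GSK-126 was compared with its own DMSO libraries. With all deposited peaks Chrna3 coverage was 13.1%, 16.8% and 19.5% in the DMSO libraries and 9.82%, 4.98% and 0% with GSK-126, and the groups did not overlap. The mean went from 16.5% ± 3.20 to 4.93% ± 4.91 (SD, n = 3 each). Of 2385 promoters, 46.0% were lower with GSK-126 without overlap, which is the background for this difference. In the equal-length lists the DMSO libraries were at 12.3%, 16.8% and 2.78% and the GSK-126 libraries kept all their Chrna3 peaks, so the groups overlapped. The difference was -5.70 points (95% interval ± 10.9, SE 4.41) and did not pass the test (limma adjusted p = 0.578), where 6.82% of 939 promoters were called. Without GSK-126 replicate 3, the library that stood apart, it was -3.23 points.

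With all deposited peaks the difference was -11.5 points (SE 2.94) and passed (limma adjusted p = 0.0302), in a comparison that called 26.7% of 2385 promoters as lower with GSK-126 and whose median change was -4.77 points. With the replicate number as a block it no longer passed (limma adjusted p = 0.0525). It was called in 2 of 6 fits that left out 1 library, with adjusted p from 0.0193 to 0.0813. Ranked by fold enrichment instead of −log10 p, the equal-length difference was 4.01 points upward. Within the window the GSK-126 peaks, 1 in replicate 1 and 1 in replicate 2, lay around the 5' end and reached at most 484 bp downstream of it, and their fold enrichments of 4.17 and 4.26 were within the range of 3.56 to 4.90 of the DMSO peaks. The intron bases from 898 to 931 bp were covered in 3 of 3 DMSO libraries and in no GSK-126 library. These bases were picked on all 24 libraries, these included, and the counts were not tested. Of 2385 promoters, 46.0% were lower with GSK-126 without overlap, a share of whole windows and not of single bases.

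Of the other members, Chrna5 had coverage of 0%, 2.72% and 1.45% in these DMSO libraries and 0% in all 3 libraries with GSK-126. Chrnb4 had 4.22% in 1 DMSO library and 2.1% in 1 GSK-126 library. Chrnb2 had a peak with GSK-126 in replicate 1 (1.82%) and Chrna7 in replicate 3 (2.68%), where the DMSO libraries had none. Neither these nor Chrna5 had coverage in enough libraries for a test. The whole cluster region was covered to 0.863% ± 0.582 in the DMSO libraries and 0.457% ± 0.486 with GSK-126 in the equal-length lists, a difference of -0.406 points (exact two-sided permutation test, p = 0.4, where 3 against 3 libraries cannot go below 0.1). In the full lists it was -1.22 points, from 1.68% ± 0.537 to 0.457% ± 0.486, and the groups did not overlap (exact permutation p = 0.1, the smallest possible). Beside this, 46.0% of 2385 promoters were lower with GSK-126 without overlap.

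GSK-J4 left the Chrna3 mean close to its DMSO set, with a wide spread. Chrna3 coverage was 6.47%, 10.98% and 7.87% with DMSO and 1.63%, 13.6% and 14.6% with GSK-J4, the same in both kinds of list, and GSK-J4 replicate 1 lay below all 3 DMSO libraries while the others lay above them. The difference was 1.49 points (95% interval ± 8.41, SE 3.67, limma adjusted p = 0.975), an interval that holds both losses and gains of several points. No promoter was called in this comparison (0.0% of 1524, 73 at an unadjusted p under 0.05). The 2 peaks of GSK-J4 replicate 1 were short, at 49 bp each, with fold enrichments of 4.90 and 5.24, the latter being the highest of all 37. The intron bases from 898 to 931 bp were covered in 2 GSK-J4 libraries and in none of its DMSO libraries, with no test of either count.

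Chrna5 was covered over 4.17%, 2.38% and 5.63% in the DMSO libraries and had no peak in any GSK-J4 library. With all deposited peaks the difference was -4.06 points (SE 2.15, limma adjusted p = 0.999), and 2.46% of 2034 promoters were lower with GSK-J4 without overlap. Chrna5 was tested only by way of its DMSO libraries, so this difference could only be downward and nothing is read from that test. In the equal-length lists too few libraries were covered for a test. Peaks took up 1.01% ± 0.141 of the cluster region with DMSO and 0.806% ± 0.585 with GSK-J4 in the equal-length lists, a difference of -0.203 points (exact two-sided permutation test, p = 1).

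The effects of the compounds on Chrna3 were set against each other in a fit of their 12 libraries. The GSK-126 effect minus the GSK-J4 effect was -2.87 points (95% interval ± 11.7, SE 5.27, limma adjusted p = 0.878), in a comparison that called 1.3% of 1766 promoters. In the full lists it was -13.0 points (SE 5.04, limma adjusted p = 0.157), where 23.4% of 3026 promoters had an unadjusted p under 0.05. Without GSK-J4 replicate 1 it was -17.2 points and passed (limma adjusted p = 0.0309). This is 1 of 12 fits that left out 1 library. The share of promoters called in it is not given here, so nothing is read from that call. The DMSO sets of GSK-126 and GSK-J4 were both harvested on DIV5. With all deposited peaks they were at 16.5% ± 3.20 and 8.44% ± 2.31 at Chrna3, without overlap. Their full lists covered 3.69 and 1.89 Mb on average. In the equal-length lists of each experiment they were at 10.6% ± 7.16 and 8.44% ± 2.31, with overlap. Those lists were limited to a different summed length in each experiment, so these values do not compare the sets at equal length.

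Chrna4, the alpha4 subunit of the most widespread brain receptor, had no peak in its window in any library, because the gene model of the annotation begins at an incomplete transcript. The principal transcript begins 4241 bp further downstream, at chr2:181039305. Around that 5' end 21 of the 24 libraries had a peak, as often as at 3.85% of promoters drawn in this way, and all but those in DMSO replicate 1 of the GSK-126 set, DMSO replicate 3 of the GSK-J4 set and GSK-J4 replicate 2. This window was added after the data were seen. Of its 28 peaks 20 lay wholly upstream of the principal 5' end, and 16 libraries overlapped there at 231 to 244 bp upstream. They had a median fold enrichment of 2.96, lower than the 3.81 of Chrna3, and ranked at a median percentile of 8.02 among the fold enrichments of their own libraries.

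The coverage of the principal Chrna4 window did not follow the days or the drugs beyond its spread. The full lists gave 2.00%, 14.4% and 8.83% at DIV1, 3.27%, 3.05% and 24.5% at DIV3, 7.83%, 1.88% and 11.6% at DIV5, and 3.38%, 2.47% and 3.25% at DIV7. It was 0%, 3.78% and 5.43% with DMSO and 6.88%, 4.48% and 9.23% with GSK-126. The Chrna4 difference with GSK-126 was 3.79 points upward (95% interval ± 5.08, SE 2.14, limma adjusted p = 0.218) and did not pass the test. With GSK-J4 the change was 2.57 points upward (SE 5.04, limma adjusted p = 0.999), but -2.69 points in the equal-length lists (limma adjusted p = 0.974), and DIV3 to DIV5 gave -3.18 points (SE 5.49, limma adjusted p = 1). In the equal-length lists 8 of 24 libraries kept a peak there.

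Chrnb2, the partner of alpha4, had 5 peaks in 4 libraries, all of them 1518 to 2144 bp upstream of its 5' end (chr3:89764632) and none at the 5' end itself. They were in DIV1 replicate 2 (5.87% of the window), DIV3 replicates 1 and 3 (1.75% and 2.52%) and GSK-126 replicate 1. DIV3 to DIV5 gave -1.42 points with all deposited peaks (SE 1.71, limma adjusted p = 1). Chrna7 had 1 peak in each of 5 libraries, from 121 bp upstream to 1679 bp downstream of its 5' end (chr7:63212569), and the step from DIV3 to DIV5 was 1.06 points upward (SE 1.35, limma adjusted p = 1). Both genes reached the 3 libraries needed for these tests only with DIV1 libraries. Inside the long Chrna7 gene body there were more peaks, 26 in 14 libraries. The most frequent place, 49.6 to 50.4 kb downstream, had a peak in 10 libraries, among them 3 of 3 DMSO libraries of the GSK-126 set and no GSK-126 library. This place was picked on all 24 libraries, these included, and the counts were not tested. Of 2385 promoters, 46.0% were lower with GSK-126 without overlap. That share is of coverage in promoter windows, and none is given here for places inside genes.

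Chrna2 had a single promoter peak, of 134 bp, in DIV7 replicate 3 (2.23% of its window). A place 10.4 to 10.8 kb upstream of it had a peak in 11 libraries of all 8 groups, and this place is the 5' end of the neighbouring gene Ephx2, an epoxide hydrolase. Chrna6 and Chrnb3, which lie next to each other on chromosome 8, had no peak in any of the 24 libraries within 15 kb of their gene models.

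The members with recurrent peaks differed in CpG number around the 5' end. In the 1 kb around the 5' end there were 80 CpGs at the principal start of Chrna4, 77 at Chrna7, 56 at Chrna3 and 43 at Chrnb2. There were 30 at Chrnb4, 19 at Chrna5, 12 each at Chrna6 and Chrnb3, 11 at the upstream start of Chrna4 and 8 at Chrna2. The median over promoters was 52 where 12 or more libraries had a peak, 53 where 1 to 11 had one and 28 where none had. Chrna7, with a peak in 5 libraries, was as rich in CpGs as the principal start of Chrna4, with a peak in 21. The Chrna5 peaks lay outside this 1 kb. In the 6 kb windows there were 149 CpGs at the principal start of Chrna4, 138 at Chrna5, 129 at Chrna3 and 72 at Chrnb4. The median was 134 where 12 or more libraries had a peak and 92 where none had. 

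**Figure D5:**
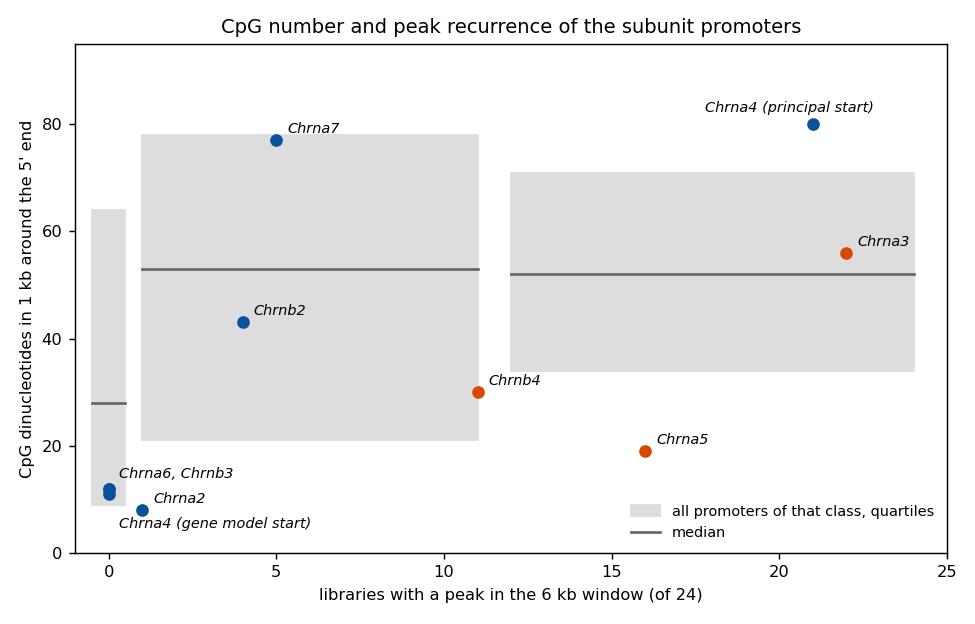
Number of CpG dinucleotides in the 1 kb around the 5' end against the number of libraries with a peak in the 6 kb window, for the 9 subunit genes (orange, the chromosome 9 cluster; blue, others; Chrna4 at both 5' ends); grey boxes give the quartiles and lines the median of all promoters with a peak in 0, 1 to 11 and 12 to 24 libraries. Chrna3 sits near the median of its class at 56 CpGs, and Chrna5 lies below that median, at 19, but its peaks lay outside the 1 kb counted.

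Among 28 other genes of cholinergic signalling, 14 had a promoter peak in at least 1 library and 5 in at least 12, beside 38.0% and 9.45% of all promoters. In the equal-length lists 4 could be tested in a comparison and none was called. Beside this, 1.0% of 1795 promoters were called between DIV1 and DIV7 and 6.82% of 939 with GSK-126. The 5 were Lypd6b (23 libraries) and Lypd1 (13), whose products bind nicotinic receptors, the muscarinic receptors Chrm1 (20) and Chrm2 (12), and the acetylcholine-degrading enzyme Ache (17). The 7 subunits of muscle and hair cell receptors had few peaks, in 4 libraries at Chrna1 and 1 at Chrnb1. The 3 genes for receptor clustering at the muscle synapse had none. The vesicular transporter Slc18a3 and Chat, which makes acetylcholine, had a peak in 1 library each.

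In the full lists Chrm1 was covered to 9.66% ± 5.38 at DIV1, 10.3% ± 5.25 at DIV3, 15.03% ± 3.77 at DIV5 and 2.92% ± 2.702 at DIV7. Ache had 10.6% ± 9.46 at DIV1, 11.05% ± 4.04 at DIV3, 2.32% ± 2.01 at DIV5 and 0.589% ± 1.02 at DIV7. Lypd6b had 14.4% ± 5.68 at DIV1, 8.43% ± 4.19 at DIV3, 11.6% ± 4.62 at DIV5 and 5.35% ± 4.84 at DIV7. The direction for Lypd6b depended on the lists, since its difference from DIV1 to DIV7 was -9.07 points in the full lists and 3.96 points upward in the equal-length lists. That of Ache was -9.98 and -1.84 points. Neither gene was called in either list, and both differences are descriptions only. With GSK-126 Lypd6b had 4.19% ± 4.44 against 9.51% ± 3.18 with DMSO (-5.31 points, SE 2.79, limma adjusted p = 0.194), and Chrm2 had no peak against 5.42% ± 4.37 (-5.42 points, SE 2.38, limma adjusted p = 0.132). Chrm2 was tested only by way of its DMSO libraries, so its difference could only be downward and nothing is read from that test.

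The promoters whose coverage ran most like that of Chrna3 across the 24 libraries, with all deposited peaks, were Mboat1 (Pearson r = 0.86), Ch25h (0.80), Arhgap31 (0.78), Slc39a8 (0.78) and Adarb2 (0.77). They were taken from 1930 promoters with a peak in at least 12 libraries, whose median r was 0.27. The libraries share their total called length, with which Chrna3 coverage itself had an r of 0.40.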

How the data were processed

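H3K27me3 was profiled by CUT&RUN with an Active Motif antibody in 24 libraries of cultured CGNs. The authors trimmed the reads with Trimmomatic (0.38), aligned them to mm10 with STAR (2.7.2b) and called broad peaks in each library with MACS2 (2.1), per the paper's methods and the submitters' processing notes. The control used for peak calling is not given in the sources used here. The deposited peak lists hold a fold enrichment (a ratio, whose reference is not given in the sources used here) and a −log10 p and −log10 q for each peak. They hold no reads, so depth is unknown and no counting interval was given.

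From these lists the percent of each promoter window under peaks was computed in Python (3.11.15), with gene models from GENCODE M21. Promoters with coverage in at least 3 libraries of an experiment were tested with limma (3.58.1, lmFit and robust eBayes, in R 4.3.3) on percent coverage, each drug against its own DMSO set, with Benjamini-Hochberg adjustment over all promoters tested and a threshold of 0.05. In the main setting lists were limited to equal summed length within an experiment, and over all 12 drug and DMSO libraries for the fit of both compounds. The fit was tested on simulated data. The chromosome 9 cluster was tested with exact two-sided permutation tests (scipy 1.17.1). Groups came from the sample labels. Replicates were pools of litters, and no pair of libraries shared over 0.136% of identical peaks. Deviations of same-numbered replicates were weakly correlated (-0.0688 to 0.157 in the time course, -0.0585 to 0.0930 for GSK-126 and 0.0272 to 0.0336 for GSK-J4). Differently numbered replicates gave -0.134 to 0.0658, -0.103 to 0.0627 and -0.0371 to 0.0027 in the same order. The median was higher for same-numbered pairs in each experiment, and for GSK-J4 the ranges did not overlap. The main fits used no pairing, and a replicate block was fitted as an alternative. All 9 subunit genes were named, with the 5 promoters most like Chrna3 and the genes of 5 cholinergic lists with a peak in at least 12 libraries. The members and lists were chosen with earlier results of these data known. The alternatives were all deposited peaks, only peaks with −log10 q from 2 upward, peaks ranked on fold enrichment, other windows, a replicate block and leaving out each library.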

Additional observations from a re-analysis of the deposited data

How the results depend on the processing

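Coverage of 0% is a value under a threshold, and the 5 Chrna3 peaks of DIV5 lay just under the weakest peak kept. As a description only, since Chrna3 was chosen on these libraries, the number of subunit promoters called between DIV1 and DIV7 was 1 (Chrna3), and 0 with all deposited peaks, with −log10 q of at least 2, ranked by fold enrichment and without DIV7 replicate 1 (0 to 1 when leaving out 1 library). Between DIV5 and DIV7 it was 1, and 0 under the same 3 settings of the lists. In the equal-length lists 1.0% of 1795 promoters were called between DIV1 and DIV7 and 0.334% between DIV5 and DIV7. For GSK-126 the number of subunit promoters called was 0, beside 6.82% of 939 promoters called. With all deposited peaks that number was 1, beside 26.7% of 2385 promoters called as lower. Subunit promoters with a peak in any library numbered 6, and 3 with −log10 q of at least 2. With all deposited peaks the Chrna3 change reversed to 2.32 points (DIV1 to DIV3), 9.56 (DIV3 to DIV5) and -3.50 (DIV5 to DIV7), and the Chrna5 change to -0.21 (DIV5 to DIV7). Ranked by fold enrichment, Chrna3 reversed to 4.01 points for GSK-126 and 5.97 for the difference between the compounds, and the cluster to 0.382 for GSK-126. Leaving out 1 library, the Chrna5 change ranged from -2.92 to 1.19 points (DIV1 to DIV7) and from -2.73 to 1.38 (DIV1 to DIV3), in both cases positive without DIV1 replicate 1, and the Chrna3 change from -1.67 to 0.31 (DIV1 to DIV3), positive without the same library. The Chrna3 change with GSK-J4 ranged from -0.83 to 5.64 points (-0.33 without GSK-J4 replicate 2 and -0.83 without replicate 3). The Chrna3 difference between the compounds ranged from -6.79 to 0.23, positive without DMSO replicate 2 of the GSK-126 set, and the cluster change with GSK-J4 from -0.392 to 0.134, positive without GSK-J4 replicate 1. The cause was not tested. With the replicate block the Chrna3 change with GSK-126 stayed at -5.70 points (SE 2.84 with and 4.41 without the block, limma adjusted p = 0.400). No call in the equal-length lists changed. With all deposited peaks the block moved its limma adjusted p from 0.0302 to 0.0525, which ended that call. As a description only, the Chrna5 change between DIV1 and DIV7 with all deposited peaks was -7.68 points with the block. It was -8.79 points without DIV1 replicate 1, and whether it was called depended on these settings.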
